A study of Mus musculus with 7 samples.

Results

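Plagl1, Grb10, Zrsr1, Commd1, Impact, Zdbf2, Peg13, Trappc9 and Rasgrf1 are mouse genes known for imprinting that lie alone or in pairs, outside the large imprinted clusters of chromosomes 2, 6, 7, 12 and 17. These 9 genes were picked by symbol as known imprinted genes, by a rule that uses no measured value although earlier results of these data were known, from 43346 gene identifiers, of which 21805 were tested for a difference between alleles. Counts for 8 of the 9 were analysed, and Peg13 was not analysed here. The tissue was the tibial growth plate of 7 male F1 mice aged 21 days, bred from C57BL/6J (B6) and CAST/EiJ (CAST), a wild-derived inbred strain. All 7 mice had the same genotype and no treatment was named, so the comparison was between the B6 and the CAST allele within each mouse. RNA depleted of ribosomal RNA was sequenced as paired-end reads, and each read was assigned to a gene and an allele, with ambiguous reads divided between candidates.

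An imprinted gene is expressed mainly from the copy inherited from 1 parent, because a nearby control region was methylated in either the egg or the sperm. The mark is kept in the embryo by factors such as ZFP57, a zinc finger protein that binds a methylated hexamer. Many imprinted genes act on growth: Grb10 encodes an adaptor that restrains insulin and IGF1 receptor signalling, and Plagl1 encodes a zinc finger transcription factor that slows cell division. As background, Plagl1, Zrsr1, Impact, Zdbf2, Peg13 and Rasgrf1 are known as paternally expressed, Grb10 as maternally expressed outside neurons and paternally expressed in neurons, and Commd1 and Trappc9 as biased to the maternal copy in brain.

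Depth ran from 14098019 to 37849667 counts per mouse. These totals exceed the average read number that the submitters' protocol gives, for a reason not found in the sources used here, so a count may not be 1 independent read pair and Wilson intervals below may be too narrow. Mitochondrial counts, which come from the dam, were 99.98% to 99.99% B6 in each mouse, and X-linked counts, which in a male also come from the dam, were 90.2% to 91.6% B6. The dam was therefore B6, the maternal allele B6 and the paternal allele CAST, and since the cross had 1 direction, parental origin and strain cannot be told apart. The 13 chondrocyte markers were above 0 in every mouse and summed to between 64838 and 101856 CPM (counts per 1000000 counts of the mouse). The 5 osteoblast markers also reached 35600 to 65086 CPM, so the tissue was not chondrocytes alone. The 8 neuron and glia markers summed to 29.6 to 42.3 CPM, with Nefl at 0 in all mice, Snap25 at or near 0, and Mbp, a myelin protein, the highest at 19.4 to 28.8.

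Promoter sequence from RefSeq (GRCm38.p6) was examined for 6 of the 9 genes, in 9 windows of 250 bases before a start site. No window of Impact, Trappc9 or Peg13 was examined, so the motif counts below leave these genes out. The windows below are those of Plagl1, of both starts of Grb10, of Zrsr1, which lies inside Commd1, and of the Zdbf2 start with the most motif matches, to show how unlike these starts are. Each reads 5′ to 3′ on the gene's strand, and capitals mark TGCCGC or its reverse complement GCGGCA, the hexamer bound by ZFP57 when methylated.
Plagl1, chr10:13090582-13090831, plus strand: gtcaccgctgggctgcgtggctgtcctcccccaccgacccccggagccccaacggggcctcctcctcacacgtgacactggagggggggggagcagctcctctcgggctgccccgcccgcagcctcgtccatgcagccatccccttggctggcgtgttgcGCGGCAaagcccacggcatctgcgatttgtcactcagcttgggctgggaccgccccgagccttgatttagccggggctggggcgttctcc
Zdbf2, upstream start, chr1:63200108-63200357, plus strand: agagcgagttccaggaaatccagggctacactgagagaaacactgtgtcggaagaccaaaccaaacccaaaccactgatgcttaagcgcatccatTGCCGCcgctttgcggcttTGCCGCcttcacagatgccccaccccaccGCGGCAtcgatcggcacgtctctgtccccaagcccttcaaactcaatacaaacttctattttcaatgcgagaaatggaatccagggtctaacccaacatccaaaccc
Grb10, first start, chr11:12037421-12037670, minus strand: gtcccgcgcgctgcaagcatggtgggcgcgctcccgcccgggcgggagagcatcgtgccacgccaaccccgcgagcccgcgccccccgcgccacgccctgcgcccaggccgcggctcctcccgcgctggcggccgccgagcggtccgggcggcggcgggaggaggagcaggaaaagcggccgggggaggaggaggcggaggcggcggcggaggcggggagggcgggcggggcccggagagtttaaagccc
Grb10, downstream start, chr11:12027972-12028221, minus strand: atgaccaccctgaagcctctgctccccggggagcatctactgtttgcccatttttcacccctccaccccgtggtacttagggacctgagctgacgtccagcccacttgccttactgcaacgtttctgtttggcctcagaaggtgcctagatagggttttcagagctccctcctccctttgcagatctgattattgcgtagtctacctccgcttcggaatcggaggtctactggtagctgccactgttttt
Zrsr1, chr11:22971755-22972004, plus strand: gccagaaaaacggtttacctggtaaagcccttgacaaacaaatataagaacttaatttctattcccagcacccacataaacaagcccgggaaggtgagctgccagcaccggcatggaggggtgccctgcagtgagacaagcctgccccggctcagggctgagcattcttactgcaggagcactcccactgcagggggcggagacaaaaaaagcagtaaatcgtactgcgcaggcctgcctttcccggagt

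The hexamer was found on either strand in 2 of the 9 windows, 1 match at Plagl1 and 3 at the upstream start of Zdbf2. The other Zdbf2 start, at 63273269, held 0 matches. By their opening bases, neither the upstream start of Zdbf2 nor the first start of Grb10 was found in a GENCODE transcript of the gene. Among all 32851 RefSeq promoter windows of that length, 8.68% held the hexamer and 0.0731% held 3 or more matches. The first start of Grb10 held 40 CpGs, more than 98.7% of all windows, while its downstream start and the Zrsr1 start held 8 each, against a median of 6 over all windows. Plagl1 held 19 and the upstream start of Zdbf2 held 13. The windows describe letters only, since neither methylation nor binding was measured.

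In the growth plate, 6 of the 8 genes differed between alleles at an FDR under 0.20, where FDR is the Benjamini-Hochberg adjusted p of edgeR's likelihood-ratio test over all 21805 genes. The background was 32.6% of tested genes called. Plagl1, Zrsr1, Impact, Zdbf2 and Rasgrf1 were higher on the CAST, paternal allele, 5 of 8 against 15.4% of all tested genes, and Grb10 was higher on the B6, maternal allele, 1 of 8 against 17.2%. Over 90% of counts lay on 1 allele for 4 of the 8 (Plagl1, Zdbf2, Rasgrf1 and Grb10), against 1.32% of the 14526 autosomal genes that reached 10 counts in each mouse. The same allele was higher in all 7 mice for 6 of the 8, against 26.3% of those autosomal genes. Commd1 and Trappc9 were not called.

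**Figure D1:**
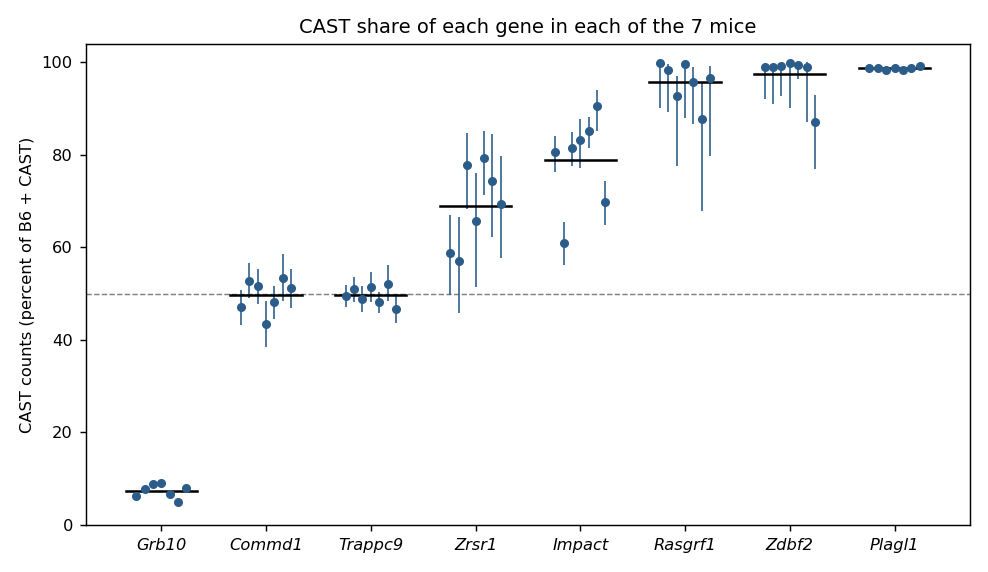
CAST share of each gene, as a percent of B6 plus CAST counts, with 1 point per mouse, 95% Wilson intervals of counting error and a bar for the mean of 7 mice. Grb10 lies between 4.91% and 9.02%, Commd1 and Trappc9 straddle the dashed line at 50%, Zrsr1 and Impact are spread from 57.2% to 90.6%, and Rasgrf1, Zdbf2 and Plagl1 lie at 87.2% or above.

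Plagl1 (ENSMUSG00000019817, chr10:13060504-13131694 in GRCm38/mm10, plus strand) was expressed almost wholly from CAST in every mouse. The CAST share was 98.5% in the lowest mouse, 98.7% in the median mouse and 99.1% in the highest, with a mean of 98.7% ± 0.234 (SD, n = 7). Total counts ran from 880 to 2356, with a median of 1508, so 11.2 to 36.0 counts per mouse were assigned to B6. The CAST allele was higher in 7 of 7 mice and the groups of allele counts did not overlap. In CPM, CAST stood at 50.03 to 67.1 and B6 at 0.487 to 1.04. The log2 fold change of CAST against B6 was 6.26, with an FDR of 0 at the precision of edgeR's likelihood-ratio test and 9.74e-20 in its quasi-likelihood test. An exact sign-flip permutation test of the log2 ratios (pseudocount 0.5), two-sided, gave p = 0.0156, the smallest possible with 7 mice.

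Grb10 (ENSMUSG00000020176, chr11:11930508-12038683, minus strand) was the only one of the 6 called genes higher on B6. The CAST share was 4.91% in the lowest mouse, 7.73% in the median mouse and 9.02% in the highest, with a mean of 7.34% ± 1.49 (SD, n = 7). B6 was higher in 7 of 7 mice, at 264 to 333 CPM against 16.9 to 32.2 on CAST, and the ranges were far apart. The log2 fold change was -3.63 (edgeR FDR 1.04e-161, and 7.89e-16 by quasi-likelihood), and the exact sign-flip permutation test gave p = 0.0156. The minority CAST signal of Grb10 was larger than the whole signal of Zdbf2 or Rasgrf1. Taking each count as 1 read, it also differed between mice beyond counting error, with 95% Wilson intervals of 4.34% to 5.56% in mouse 7 and 8.32% to 9.76% in mouse 4. The SD of the share over mice was larger than in 82.4% of 245 autosomal genes of like depth.

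X-linked genes gave a reference for counts placed on an allele that males of this cross do not carry. Over 461 X-linked genes that reached 10 counts in each mouse, the median CAST share was 1.04%, with quartiles of 0.203% and 5.45%, and 48 genes were above 40%. The B6 share of Plagl1, 1.27%, was close to that median. The CAST share of Grb10 was higher than that of 354 of the 461 genes, or 76.8%. How much of the Grb10 minority signal came from misplaced reads was not tested. Neuron markers, listed above because Grb10 is paternal in neurons, stood at 2.33 CPM or below apart from the glial Mbp and Gfap, and their part in the CAST counts was not tested.

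**Figure D2:**
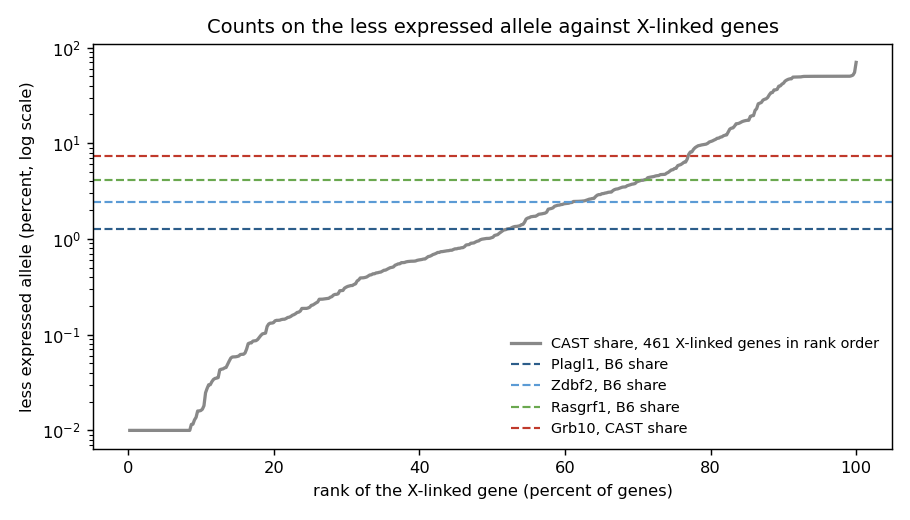
The CAST share of 461 X-linked genes in rank order (grey line, values under 0.01% drawn at 0.01%, log scale), with dashed lines for the mean share of the less expressed allele of 4 autosomal imprinted genes. The line for Plagl1 at 1.27% crosses near the middle of the ranks, and the line for Grb10 at 7.34% crosses at 76.8%.

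Zdbf2 (ENSMUSG00000027520, chr1:63273265-63314576, plus strand), which encodes a protein with a DBF-type zinc finger, was expressed from CAST at a low level. On CAST lay 87.2% of counts in the lowest mouse, 99.1% in the median mouse and 99.9% in the highest (mean 97.6% ± 4.58, SD, n = 7). Totals were only 26 to 102 counts, so a share of 99% rested on a B6 count below 1. Mouse 8 alone had more, 8.83 of 69 counts on B6. CAST was higher in 7 of 7 mice, with a log2 fold change of 5.01 (edgeR FDR 1.28e-48) and p = 0.0156 in the exact sign-flip permutation test. Without mouse 8 the share was 99.3% ± 0.361 (SD, n = 6) and the log2 fold change was 6.58.

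Rasgrf1 (ENSMUSG00000032356, chr9:89909908-90026977, plus strand), an exchange factor that activates RAS and is best known in neurons, had the lowest level of the 8. The CAST share was 87.7%, 96.7% and 99.8% in the lowest, median and highest mouse (mean 95.8% ± 4.33, SD, n = 7), on totals of 23.0 to 51.1 counts. The B6 counts were at most 2.83 in any mouse. CAST was higher in 7 of 7 mice (log2 fold change 4.46, edgeR FDR 2.74e-36), and the exact sign-flip permutation test gave p = 0.0156. In the mouse with 23.0 counts, mouse 7, the Wilson interval ran from 67.9% to 95.5%, and at this depth the 7 shares cannot be ranked.

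Impact (ENSMUSG00000024423, chr18:12955852-12992950, plus strand), an inhibitor of GCN2, the kinase that senses amino acid shortage, had counts biased to CAST but not confined to it. Its CAST share was 61.0% in mouse 2, 81.6% in the median mouse and 90.6% in mouse 7, with a mean of 78.9% ± 10.1 (SD, n = 7). Taking each count as 1 read, these differences were outside counting error, since the Wilson intervals were 56.2% to 65.5% in mouse 2 and 85.2% to 94.1% in mouse 7. The SD was larger than in 97.9% of 3143 autosomal genes of like depth. The CAST signal varied with a coefficient of variation of 16.1%, from 7.48 to 12.3 CPM, and the B6 signal with one of 57.3%, from 1.13 to 5.44. CAST was higher in 7 of 7 mice (log2 fold change 1.82, edgeR FDR 1.62e-11), with p = 0.0156 in the exact sign-flip permutation test. Its totals were whole numbers in all 7 mice, which does not show how reads were divided between alleles. Of the 461 X-linked genes above, 48 had over 40% of counts on CAST, an allele that males of this cross do not carry there. How much of the B6 signal of Impact came from misplaced or divided reads was not tested.

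Zrsr1 (ENSMUSG00000044068, chr11:22972005-22976496, plus strand) is a single-exon retrogene that encodes a splicing factor related to U2AF35 and lies inside Commd1 on the opposite strand. The CAST share was 57.2% in the lowest mouse, 69.3% in the median mouse and 79.3% in the highest, with a mean of 68.9% ± 8.85 (SD, n = 7) on totals of 53.6 to 129 counts. CAST was higher in 7 of 7 mice, although the Wilson intervals of mice 1 and 2 reached below 50%. The log2 fold change was 1.18 (edgeR FDR 1.66e-07), and the exact sign-flip permutation test gave p = 0.0156. CAST stood at 1.63 to 2.95 and B6 at 0.705 to 1.63 CPM, so that the ranges of the alleles just overlapped across mice.

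The Zrsr1 values are uncertain because its exon shares 412 bp with exons of Commd1 on the other strand. In 6 of 7 mice its total was fractional (tolerance 1e-04), as happens when reads are divided with another gene. Commd1 in turn shares 294 bp of exon with Gm28048 on the same strand. Single totals of Zrsr1, Commd1, Gm28048 and B3gnt2 were fractional, but their sum was whole in 7 of 7 mice. Gm28048 and B3gnt2 were added to this sum after the overlaps had been seen. Which of the Zrsr1 counts came from Commd1 was not tested.

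Commd1 (ENSMUSG00000051355, chr11:22896136-22982382, minus strand), a protein of copper balance and endosomal sorting, was near equal on the alleles. Its CAST share was 43.4%, 51.1% and 53.4% in the lowest, median and highest mouse (mean 49.7% ± 3.62, SD, n = 7), with CAST higher in 4 of 7 mice. The log2 fold change was 0.011 with an edgeR FDR of 1, and the exact sign-flip permutation test gave p = 0.797. With Gm28048 added, the share was 49.7% ± 2.45 (SD, n = 7), and with B3gnt2 as well it was 48.8% ± 1.53 (SD, n = 7).

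Trappc9 (ENSMUSG00000047921, chr15:72589620-73061204, minus strand), a subunit of the TRAPPII complex of vesicle traffic and the host of Peg13, was also near equal on the alleles. The CAST share was 46.8%, 49.5% and 52.2% in the lowest, median and highest mouse (mean 49.7% ± 1.96, SD, n = 7), and CAST was higher in 3 of 7. The log2 fold change was 0.0025 with an edgeR FDR of 1, and the exact sign-flip permutation test gave p = 0.688. Totals of 620 to 1832 counts, whole in every mouse, came with a smaller spread than in Commd1.

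**Figure D3:**
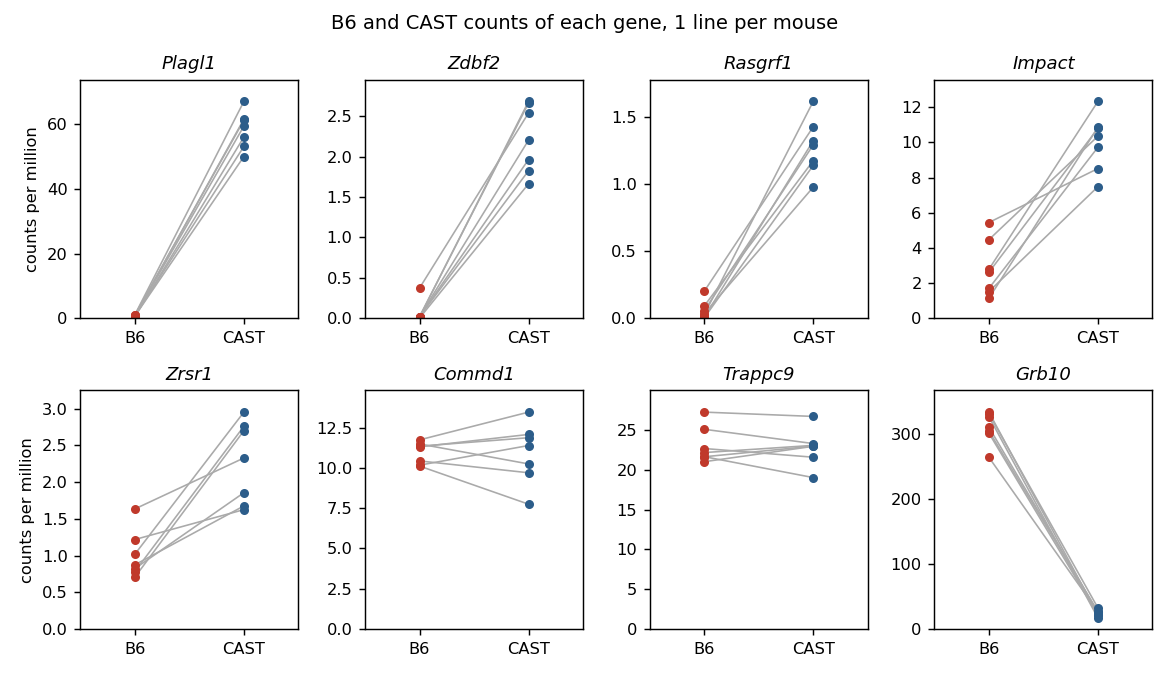
B6 (red) and CAST (blue) CPM of each gene, 1 line per mouse, with every axis from 0. The lines rise steeply for Plagl1, Zdbf2 and Rasgrf1, rise in all 7 mice from unequal B6 levels for Impact and Zrsr1, cross for Commd1 and Trappc9, and fall for Grb10.

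Total levels, both alleles summed and given as CPM per kb of exon, spanned a wide range. Grb10 was highest at 36.8 ± 2.64 (SD, n = 7), above 94.6% of the 14526 autosomal genes. Plagl1 followed at 7.56 ± 0.754, then Trappc9 at 5.78 ± 0.532, Commd1 at 3.68 ± 0.404 and Impact at 2.50 ± 0.422. Zrsr1 stood at 0.730 ± 0.132, Zdbf2 at 0.181 ± 0.0380 and Rasgrf1 at 0.121 ± 0.0212, the last above only 0.537% of those genes. Ranges over mice overlapped between Plagl1 and Trappc9 and between Zdbf2 and Rasgrf1, while Plagl1 was higher than Trappc9 in 7 of 7 mice and Zdbf2 higher than Rasgrf1 in 6 of 7. In whole tissue, fewer cells of a type and less RNA per cell cannot be told apart.

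**Figure D4:**
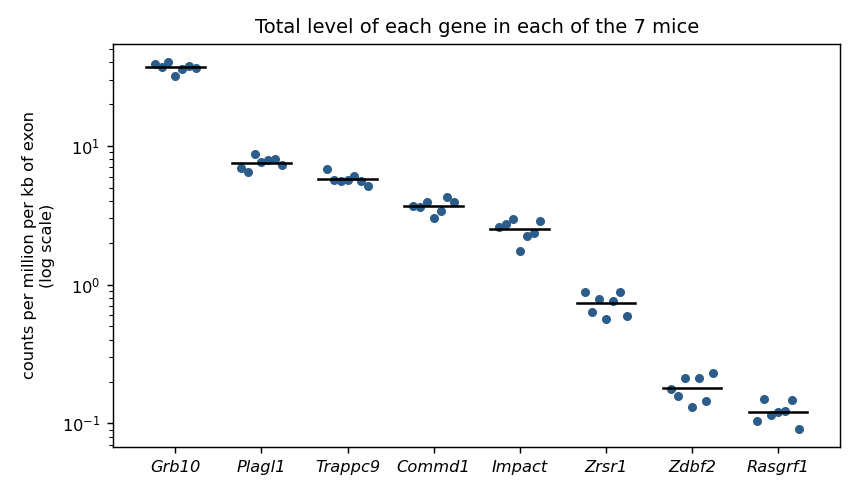
Total level of each gene in CPM per kb of exon (log scale), 1 point per mouse with a bar for the mean of 7. Grb10 lies near 36.8 and Rasgrf1 near 0.121, and only the neighbouring pairs Plagl1 with Trappc9 and Zdbf2 with Rasgrf1 overlap.

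Levels of Plagl1 and Grb10 showed little correlation over the mice (Pearson r of log2(CPM + 1) 0.0642, Spearman rho 0.214, n = 7, all genes of a mouse sharing a library). Of 11762 genes with a mean of at least 100 counts, the most like Plagl1 were Slc1a3, a glutamate transporter (r = 0.98), Sox5, a transcription factor of cartilage formation (r = 0.92), and Cirbp, a cold-inducible RNA-binding protein (r = 0.92). Those most like Grb10 were Eci2, Txndc17 and Tmem106b, each at r = 0.99. Only 6 genes passed r = 0.9 with Plagl1, against 749 with Grb10. These values are descriptions over 7 points. With the 2 farthest mice left out (n = 5), r of Plagl1 with Grb10 was -0.418 in the Plagl1 comparison and -0.352 in the Grb10 comparison. For Plagl1 with Slc1a3, Sox5 and Cirbp, r was then 0.934, 0.888 and 0.860. For Grb10 with Eci2, Txndc17 and Tmem106b, r was then 0.966, 0.976 and 0.955. The genes named as most alike were picked as the highest of 11762, a choice that favours high r. A link between them and Plagl1 or Grb10 was not tested.

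Genes in the surroundings of the 9 were compared between alleles in the same fit. Within 500 kb of the 9 genes, 64 other genes were tested and 26 (40.6%) were called, 14 higher on CAST and 12 on B6, against the background of 32.6%. Among the 44 that reached 10 counts in each mouse, 0 had more than 90% on 1 allele, against 1.32% of autosomal genes at that depth. With a background that low, 0 of 44 does not set these neighbours apart from other genes. Past 90% were 3 pseudogenes, Gm12057 with 6.61 counts per mouse on average and Gm11605 and Gm6223 with under 1. Counts near single genes, given below, rest on 13 neighbours or fewer, beside the same 32.6%.

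Near Grb10, 5 of 9 genes were called, 4 of them higher on B6, against a background of 32.6% called and 17.2% higher on B6. Of these 4, the pseudogene Gm12599 had 1.41 counts per mouse, with B6 higher in 2 of 7 mice. Fignl1 was higher on B6 in 5 of 7 (edgeR FDR 0.148). Ddc, the next gene to one side and the enzyme that makes dopamine and serotonin, had a CAST share of 19.4% ± 12.3 (SD, n = 7; log2 fold change -1.71, edgeR FDR 2.06e-07), with B6 higher in 7 of 7 mice, on 30.7 counts per mouse. Cobl, an actin nucleator on the other side, had 40.7% ± 4.21 (SD, n = 7; -0.54, edgeR FDR 0.00106), with B6 higher in 7 of 7 mice. Both were higher on the same allele as Grb10, by smaller amounts.

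Near Plagl1, 4 of 9 genes were called, 3 of them higher on B6, the allele opposite to Plagl1. Ltv1, a ribosome assembly factor, had a CAST share of 41.6% ± 6.16 (SD, n = 7; edgeR FDR 0.00848). Phactr2, named after its values were seen, had 36.6% ± 2.73 (SD, n = 7; log2 fold change -0.76, edgeR FDR 8.38e-13), with B6 higher in 7 of 7 mice. Sf3b5, a splicing factor subunit on the other side, was not called (48.3% ± 1.91, SD, n = 7).

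Beside Zrsr1 and Commd1, 2 of the 12 genes around Commd1 were called. Cct4, a chaperonin subunit, had a CAST share of 63.5% ± 3.63 (SD, n = 7; log2 fold change 0.82, edgeR FDR 1.67e-14) and was higher on CAST in 7 of 7 mice. The other called gene was Gm12057. The noncoding 9130230N09Rik, with 7 counts per mouse, was not called.

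Around Zdbf2, 6 of 13 genes were called, 4 of them higher on CAST, among them Gm11605 with 0.509 counts per mouse. The nearest to one side, the receptor gene Gpr1, had 57.7% ± 22.7 on CAST (SD, n = 7) and was not called on 30.9 counts per mouse. Adam23, a cell adhesion protein named after its values were seen, had 66.0% ± 4.58 on CAST (SD, n = 7; log2 fold change 0.99, edgeR FDR 2.13e-06) and was higher on CAST in 7 of 7 mice.

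Impact had 3 of 6 neighbours called, all higher on CAST, but only Osbpl1a rested on more than a few counts. Osbpl1a, an oxysterol-binding protein, stood at 55.9% ± 2.50 (SD, n = 7; edgeR FDR 0.0130). Gm5687 and Gm26407 had 3.86 and 3.71 counts per mouse, and Gm26407 was higher on CAST in 5 of 7 mice. Rasgrf1 had 5 of 10 called. Its nearest neighbours Tmed3, of vesicle traffic, and Ctsh, a lysosomal protease, stood at 55.3% ± 1.04 and 56.3% ± 1.93 on CAST (SD, n = 7; edgeR FDR 0.0335 and 6.59e-05). Trappc9 had 1 of 5 called. Its nearest neighbours, Chrac1 of a chromatin complex at 47.1% ± 11.4 (SD, n = 7) and Gm23217 with under 1 count, were not called, nor were any of the 3 genes around Peg13.

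**Figure D5:**
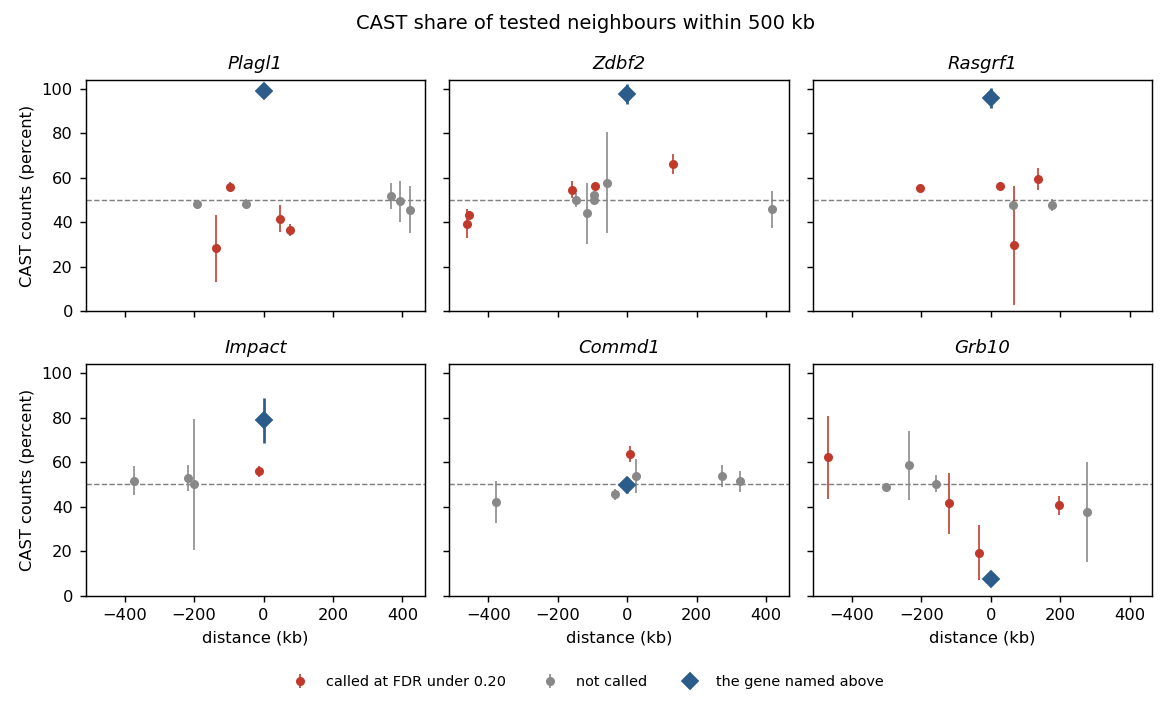
CAST share (mean of 7 mice with SD bars) of tested neighbours with a mean of at least 10 counts, by distance in kb from the gene named above each panel (blue diamond). Called neighbours (red) and others (grey) lie mostly near the dashed line at 50%, with Ddc at 19.4% beside Grb10 and Cct4 at 63.5% beside Commd1 among the exceptions.

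Imprinted genes of the large clusters gave a comparison within the same libraries. Of 38 tested, 28 were called (73.7%, against 32.6% of all tested genes), 16 higher on CAST and 12 on B6. Of 21 known as paternally expressed, 15 were higher on CAST, with Sgce (99.99%), Snrpn (99.7%) and Peg3 (99.4%) the largest by fold change, 1 on B6 and 5 not called. That 1 was Rtl1 at 1.28% CAST, which has a maternal transcript on the opposite strand. Among the 5 not called, Snurf had 50% on CAST in every mouse and Nnat 48.7% to 50%. Ambiguous reads were divided between alleles, so such even values need not be a measured balance, which was not tested. Of 17 known as maternally expressed, 11 were higher on B6, led by fold change by H19 (0.0992% CAST), Meg3 (0.230%), Mirg (0.232%) and Zim1 (0.672%), 1 was higher on CAST (Calcr, 69.1%) and 5 were not called. Klf14 of the maternal list, named after its values were seen, had a lower CAST share than H19, 0.00267%, on 13.1 counts per mouse. The median log2 fold change was 3.29 over the paternal list and -1.27 over the maternal list, beside 0.011 over all tested genes.

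Genes that work with the 9 were called about as often as any tested gene. Over 105 partners, the median log2 fold change was 0.026, beside 0.011 for all tested genes. Of them, 34 were called (32.4%, against 32.6%), 17 in each direction. Of these, 5 were X-linked and 5 of 5 were higher on B6, namely Ccdc22 (0.392% CAST) and Atp7a (2.47%) of the Commd1 list, Trappc2 (0.606%) of the TRAPP list, Naa10 (9.49%) of the imprint maintenance list and Zrsr2 (0.550%), the X-linked relative of Zrsr1. On autosomes 29 of 100 were called, 17 higher on CAST and 12 on B6. In the likelihood-ratio fit blocked by mouse, 52 of the 105 partners were called. Calls over all 21805 tested genes also rose in that fit, from 7111 to 9315.

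In insulin and IGF signalling, the pathway Grb10 restrains, 5 of 27 genes were called (18.5%, against 32.6% of all tested genes). All 5 were higher on B6, by small amounts, and this 18.5% was near the 17.2% of all tested genes higher on B6. The docking proteins Irs2 and Gab1 had CAST shares of 43.6% ± 3.74 and 44.1% ± 1.67 (SD, n = 7; edgeR FDR 0.0109 and 0.00386). Tsc2, a brake on mTORC1, and the receptor Igf1r had 46.0% ± 1.62 and 46.5% ± 1.83 (SD, n = 7; edgeR FDR 0.0651 and 0.197). The other 22 did not pass the test, and the median log2 fold change of the list was 0.021.

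In the list for the amino acid response that Impact dampens, 6 of 11 genes were called (54.5%, against 32.6% of all tested genes). The list also held Eif2ak1, Eif2ak2 and Eif2ak3, kinases other than GCN2, and Eif2ak1 and Eif2ak3 were among the 6. Of the 6 called, 5 were higher on CAST, where the background was 15.4%. Trib3, a stress-induced pseudokinase, had a CAST share of 64.1% ± 10.8, Asns, which makes asparagine, 56.6% ± 3.06, and Eif2ak4, the gene of GCN2 itself, 53.6% ± 1.92 (SD, n = 7; edgeR FDR 0.00564, 2.86e-05 and 0.0626). Sesn2, a leucine sensor, stood at 54.6% ± 3.60 (SD, n = 7; edgeR FDR 0.146), and the median log2 fold change of the list was 0.051.

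The TRAPP list had 8 of 13 genes called (61.5%, against 32.6% of all tested genes), 5 higher on CAST and 3 on B6. Trappc5 stood at 41.0% ± 3.21 and Trappc6b and Trappc6a at 57.5% ± 6.86 and 57.0% ± 5.53 on CAST (SD, n = 7; edgeR FDR 0.000159, 0.0117 and 0.0233). The Commd1 list had 7 of 16 called (43.8%), 2 higher on CAST and 5 on B6. Commd6 stood at 61.9% ± 6.83 and Commd4 at 41.7% ± 5.55 (SD, n = 7; edgeR FDR 3.39e-06 and 0.0164). Of the splicing list 2 of 12 were called (16.7%), the second being Snrnp35, a protein of the minor spliceosome, at 63.7% ± 4.58 (SD, n = 7; edgeR FDR 8.72e-07). The RAS list had 3 of 13 called (23.1%), all higher on CAST, with Rasgrp1 at 60.0% ± 5.11 and Rasa1 at 55.6% ± 8.55 (SD, n = 7; edgeR FDR 0.00721 and 0.132). Of the genes that maintain imprints, 2 of 11 were called (18.2%), both higher on B6, Naa10 and the chromatin protein Smchd1 (46.3% ± 3.24, SD, n = 7; edgeR FDR 0.162). All these partner lists held 27 tested genes or fewer, and none was tested as a set. Median log2 fold changes were 0.022 for the TRAPP list, 0.017 for the Commd1 list, 0.042 for the splicing list, 0.045 for the RAS list and -0.099 for imprint maintenance.

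Homologues that could share reads with the imprinted genes had more equal alleles, with the exception of the X-linked Zrsr2. Plagl2 stood at 55.3% ± 8.08 on CAST and was called (edgeR FDR 0.150) and Plag1 at 44.4% ± 14.2 (FDR 0.628), beside 98.7% for Plagl1. Grb14 stood at 49.8% ± 2.72 (edgeR FDR 1) and Grb7 at 58.6% ± 21.1 (FDR 0.602), beside 7.34% for Grb10. Rasgrf2 stood at 54.6% ± 2.71 (SD, n = 7 for each homologue) and was also called (edgeR FDR 0.150), with CAST higher in 7 of 7 mice. Totals of all these homologues and of Zrsr2 were whole in every mouse.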

How the data were processed

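Growth plates of 7 male B6 and CAST F1 mice were analysed, numbered 1, 2, 3, 4, 5, 7 and 8 as in the labels. The authors aligned reads with Bowtie (at most 3 mismatches) to a joint B6 and CAST transcriptome built on mm10 and divided them between genes and alleles with EMASE. SAMtools is also in the submitters' processing notes. The deposited values are estimated counts per gene for B6, CAST and their total, not normalized and not always whole. Whether counting used strand is not given in the sources used here, so reads of overlapping genes on opposite strands may be mixed.

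Genes with a total above 0 in every mouse were tested, 21805 in all, of which 1406 had a mean total under 1, since the estimates can lie just above 0. Rounded counts of the alleles were compared in edgeR 4.0.16 (R 4.3.3; TMM, estimateDisp, glmFit and glmLRT, allele as the only term), at an FDR under 0.20. For single genes, exact two-sided sign-flip permutation tests of log2((CAST + 0.5)/(B6 + 0.5)) were run over the mice. Shares are means over mice, intervals are 95% Wilson intervals that cover counting error only, and depth was 14098019 to 37849667 counts per mouse. Symbols, exons and coordinates came from GENCODE M21 (GRCm38), which held 98.0% of the identifiers. The fit was tested on simulated data. Python 3.11.15 with pandas 2.3.3 and scipy 1.17.1 was used for summaries.

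Both alleles of a mouse come from the same animal and library, so the columns are paired. Deviations from the allele means over 15111 genes correlated at 0.244 on average within a mouse (lowest 0.104). Between mice they correlated at -0.0409 on average (highest 0.265). Any pair of mice differed beyond sampling noise (21 pairs, chi-square per degree of freedom 14.4 to 96.4). Alternatives were the mouse as a block, the quasi-likelihood test, DESeq2 1.42.0, other filters, library sizes, thresholds, windows and pseudocounts, and each mouse left out in turn.

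The members and the gene lists were chosen with earlier results of these data known, although the rule for the 9 genes uses symbols only. Named were these genes, the nearest tested neighbours and those with over 90% of counts on 1 allele, up to 4 called genes per list with the largest change, the 3 genes most like Plagl1 and Grb10 in level, and homologues.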

Additional observations from a re-analysis of the deposited data

Results flagged for a closer look

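Over 16 sets of values (the log2 allele ratio and the total level of each of the 8 genes), 1 mouse stood apart by Dixon's test, and chance would flag about 0.8. It was mouse 8 for Zdbf2, with a log2 ratio of CAST to B6 of 2.70, while the other 6 mice lay between 5.09 and 6.70, a gap of 0.596 of the range against a critical value of 0.568. The ratio rested on 8.83 B6 counts of 69, and CAST remained higher in that mouse. The cause was not tested.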

How the results depend on the processing

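The calls of Plagl1, Grb10, Zrsr1, Impact, Zdbf2 and Rasgrf1 and their directions held in each of 16 alternatives, the largest FDR of any being 0.00736 (Zrsr1, replicate block with the quasi-likelihood test). The paired fits with the mouse as a block changed no call among the 8 genes. Partner genes called rose from 34 to 52 with the replicate block in the likelihood-ratio test and fell to 19 at an FDR under 0.05. Calls over all 21805 tested genes moved from 7111 to 9315 and to 4816 in these 2 settings. Neighbours called rose from 26 to 42 in a window of 1000 kb. A wider window also takes in more genes, so this rise in the count is not a rise in the share. Partner counts ran from 24 to 32 with 1 mouse left out. Commd1 and Trappc9, never called, changed sign around 0. The log2 fold change of Commd1 was -0.0066 with 1 library size per mouse, -0.0018 with autosomal genes only and -0.024 to 0.056 with 1 mouse left out. That of Trappc9 was -0.019, -0.010 and -0.023 to 0.029 in those settings, -0.0058 and -0.0017 with the replicate block (likelihood-ratio and quasi-likelihood test) and -0.0030 in DESeq2. Their mean log2 ratios ran from -0.055 to 0.042 and from -0.042 to 0.011 with 1 mouse left out. Leaving out mouse 8 moved the log2 fold change of Zdbf2 from 5.01 to 6.58. Depth limits Zdbf2 and Rasgrf1 most, with B6 counts under 9 in every mouse.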
